A study of Saccharomyces cerevisiae with 12 samples.

Results

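The proteins of the large (60S) subunit of the cytosolic ribosome of budding yeast are encoded by genes named RPL with a number, most of them present as an A and a B copy, and by RPP0, RPP1A, RPP1B, RPP2A and RPP2B, which encode the proteins of the acidic stalk. These names selected 81 of the 7126 counted features: 35 pairs of copies and 11 genes with a single copy. All 81 had enough counts to be tested, among 5245 features that did. Introns interrupt 54 of them and 27 have none. The rule used names alone, but it was chosen with earlier results of these data known.

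Ribosomal protein messages are among the most abundant in a growing yeast cell, and their transcription is coordinated. The large subunit that their products build carries the peptidyl transferase centre, the tunnel through which the new chain leaves, the central protuberance with 5S rRNA, and the L1 and acidic stalks that handle tRNAs and translation factors. Npl3 is an SR-like protein that binds messages during transcription, and Mex67 is the receptor that takes them through the nuclear pore; both have also been linked to export of the large subunit itself. Heat shock is known in yeast for a rapid drop in ribosomal protein transcription.

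RNA was cross-linked to protein with UV light and recovered by immunoprecipitation of Mex67 from strain HKY1266 or of Npl3 from strain HKY157. The no-tag control came from HKY36 or HKY381, and the labels do not say which library came from which. They name c-myc beads and GFP-Trap beads without assigning them to samples, and give no further genotype. Each culture was divided and kept for 30 min at 25 °C or at 42 °C, which gave 6 groups of 2 libraries that the design text calls biological replicates. There was no library of total RNA here, so the recovery of a message with a protein and its abundance in that strain cannot be told apart, and in these bulk samples neither can fewer cells with a message and less message per cell. Differences of strain or beads lie under every comparison between proteins or with the control and cannot be told apart from them either.

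Total counts ranged from 87741 in the heated no-tag replicate 1 to 1140349 in the unheated Npl3 replicate 2. CPM here are counts scaled to a common library size by edgeR's TMM method. The heat shock message HSP26 had 56.7 to 633 CPM in the unheated libraries and 3544 to 10305 in 5 of the 6 heated ones. The heated no-tag replicate 1 had 300.4, up from 56.7 in its own unheated culture but within the range of the unheated libraries. Most results that rest on it are given with and without it. STE2, a gene of one mating type, stood at 0 to 7.73 CPM in replicate 1 of every group and at 126 to 354 in replicate 2, so the replicates of each group differed in this mating-type marker. The NPL3 message had 1301 to 2228 CPM in the Npl3 libraries and 389 to 551 in the no-tag libraries. The MEX67 message had 92.5 to 211 CPM in the Mex67 libraries and 68.6 to 197 in the no-tag libraries.

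At 25 °C the 81 genes took 6.34% and 6.59% of each library's counts without a tag (replicates 1 and 2), 9.51% and 9.69% with Npl3, and 3.66% and 6.72% with Mex67. At 42 °C they took 4.38% and 4.59% without a tag, 3.92% and 4.90% with Npl3, and 1.51% and 3.56% with Mex67. Both unheated Npl3 libraries thus lay above all other libraries, and Mex67 replicate 1 lay below all libraries of the other strains at its temperature. Mex67 replicate 2 lay just above the no-tag libraries at 25 °C and below them at 42 °C. The exact 95% interval of the smallest share ran from 1.48% to 1.53% and that of the largest from 9.63% to 9.74%. These intervals cover counting error only, and the replicates of a strain differed by more than them.

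In group means the share was 6.46% ± 0.171 (SD, n = 2) for the control, 9.60% ± 0.128 for Npl3 and 5.19% ± 2.16 for Mex67 at 25 °C. At 42 °C the same means were 4.48% ± 0.149, 4.41% ± 0.694 and 2.54% ± 1.46. The Mex67 mean lay within its own replicate spread of the control at 25 °C. Of nuclear protein-coding counts alone the heated control had 6.93% ± 1.41 and heated Npl3 5.28% ± 0.760. The 56 small subunit protein genes followed a similar course, from 7.34% and 7.95% with Npl3 at 25 °C to 1.02% and 2.57% with Mex67 at 42 °C. The counts of large over small subunit genes had a ratio of 1.41 to 1.45 in the 4 no-tag libraries, 1.39 to 1.50 in the 4 Mex67 libraries and 1.22 to 1.30 in the 4 Npl3 libraries, with no overlap between Npl3 and either of the other strains.

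**Figure D1:**
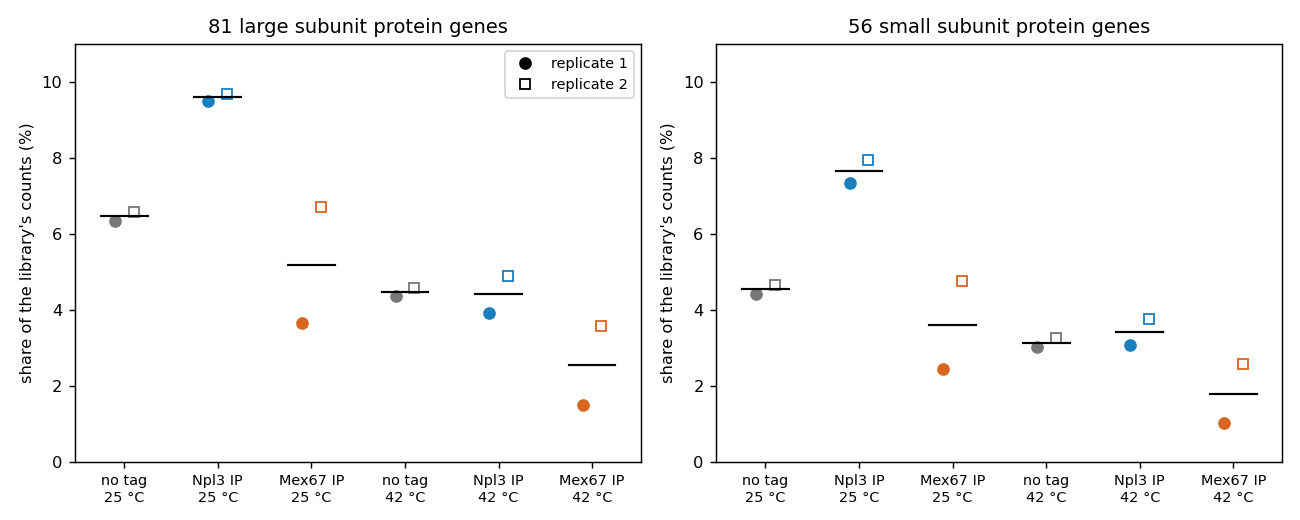
Share of each library's counts in the 81 large subunit protein genes (left) and the 56 small subunit protein genes (right), in percent, by group. Filled circles are replicate 1, open squares replicate 2 and bars the mean of 2 libraries. Both unheated Npl3 libraries, at 9.51% and 9.69%, lie above all others in the left panel, and Mex67 replicate 1 is the lowest at each temperature, at 3.66% and 1.51%.

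The first comparison asks which of these messages were recovered with Npl3 in unheated cells beyond the no-tag background. Of the 81 genes, 2 passed as higher and 0 as lower (edgeR quasi-likelihood test on all 12 libraries, Benjamini-Hochberg over all features), against 2.27% of all features called higher and 0.133% called lower. The genes spread widely around a median log2 difference of 0.34, from −1.29 for RPL1B to 2.42 for RPL34A, with 51 above 0; the median of all features was 0.00. In both Npl3 libraries 37 genes lay above both controls and 15 below both, against 28.2% and 26.9% of all features. At 42 °C 1 gene was higher and 0 lower, against 6.54% and 0.934% of all features, and the median was −0.49 with 27 above 0, where all features had 0.10. There 20 genes lay above both controls and 44 below both, against 34.9% and 24.5% of all features. Without the heated no-tag replicate 1 the median was −0.37 and 0 of the 81 genes passed, and 1 of all features was called higher. Against the 1 control left, 30 genes lay above and 46 below, where 43.1% and 40.5% of all features did. DESeq2 called 6 of the 81 higher at 25 °C, against 5.54% of its features, and at 42 °C 1 higher and 4 lower, against 9.0% and 3.68%. Without that library it called 0 of the 81 at 42 °C, against 5.14% higher and 0.0994% lower, a fit added after seeing the data.

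With Mex67 0 of the 81 genes passed against the control at either temperature, as did 0 of all features (0.0%; edgeR quasi-likelihood). At 25 °C 79 of the 81 lay below 0 with a median of −0.61, and 5 had an unadjusted p under 0.05, all lower, against 1.68% of all features. Both Mex67 libraries lay below both controls in 42 genes, against 16.0% of all features, and above both in 1, against 16.7%. That median moved with 1 library, being −0.18 without Mex67 replicate 1 and −1.30 without Mex67 replicate 2. At 42 °C 79 again lay below 0, the median was −1.31 and 37 had an unadjusted p under 0.05, all lower, against 4.92% of all features. Of the 81, 71 lay below both controls, against 18.8% of all features. This median was −0.65 without the heated Mex67 replicate 1, −2.54 without replicate 2 and −1.13 without the heated no-tag replicate 1. DESeq2 called 7 of them lower at 42 °C among the 263 features to which it gave an adjusted p, 13.7% of which it called lower: RPL3, RPL4A, RPL2B, RPL10, RPL12A, RPL22A and RPP0. How many of the 81 were among the 263 is not given here, so the 7 and the 13.7% have different bases. DESeq2 without the heated no-tag replicate 1 called 0 of the 81 and 0.0% of 5245 features lower. In the edgeR fit without it 1 of the 81 had an unadjusted p under 0.05, lower, against 1.89% of all features, and 73 lay below the 1 control left, against 34.0%.

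Set against each other directly, the proteins differed in more of these genes. At 25 °C 8 of the 81 were lower with Mex67 than with Npl3 and 0 higher, against 2.52% and 0.286% of all features (edgeR quasi-likelihood, Benjamini-Hochberg). They were RPL29, RPL41A, RPL31A, RPL31B, RPL36B, RPL24B, RPL34A and RPL26A. At 42 °C 7 were lower and 0 higher, against 3.24% and 0.686%: RPL35B, RPL31A, RPL31B, RPL29, RPL36B, RPL43B and RPL34A. The medians over the 81 were −0.95 and −0.70, where all features had 0.03 and −0.04. In both Mex67 libraries 51 genes lay below both Npl3 libraries at 25 °C and 36 at 42 °C, against 28.6% and 30.0% of all features. The median at 42 °C rested on 1 library, being 0.01 without the heated Mex67 replicate 1 and −2.05 without replicate 2, and at 25 °C it was −0.48 and −1.59. DESeq2 called 19 and 16 of the 81 lower with Mex67 at the 2 temperatures, against 5.75% and 5.21% of its features. These comparisons and those with the control share libraries, so their lists are not independent of each other.

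The calls changed when single libraries were left out, also libraries outside the comparison, and why was not tested. The share of all features called in each such fit is not given here. The changing counts therefore do not set these genes apart from other features. In 12 fits that each left out 1 library, the 18 calls held in 1 to 7 fits each, and 0 turned their direction. For Npl3 at 25 °C 0 genes passed without either unheated control, either unheated Npl3 library or either heated control, 1 passed without either unheated Mex67 library, and 4 without either heated one. For Npl3 at 42 °C RPL31B kept its call in 2 fits, those without a heated Mex67 library, in each of which 10 genes passed. Between Mex67 and Npl3 at 25 °C 0 passed without any of their 4 libraries or a heated control, 3 and 2 without no-tag replicates 1 and 2 at 25 °C, 9 and 8 without the heated Npl3 replicates 1 and 2, and 20 without either heated Mex67 library. At 42 °C 7 passed without Npl3 replicate 2, 0 without any of the other 3 libraries compared or a heated control, and 1 to 3 without an unheated library.

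**Figure D2:**
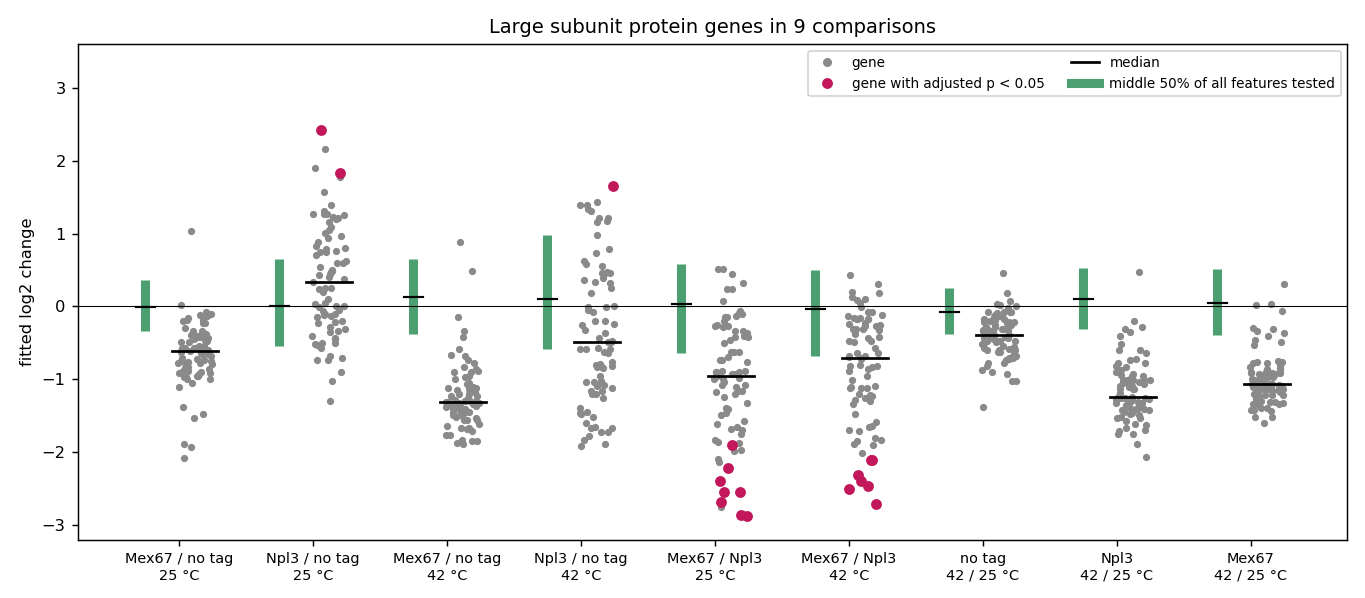
Fitted log2 differences of the 81 genes in 9 comparisons, 1 point per gene, with genes past the adjusted p of 0.05 in magenta and the median as a black bar; green bars span the middle 50% of all 5245 features tested. The genes lie mostly below 0 in the 3 heat comparisons and with Mex67, and spread to both sides with Npl3, where 2 genes pass at 25 °C and 1 at 42 °C.

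The peptide exit tunnel and its rim, with 16 of the 81 genes, held 4 of the 10 genes that passed in any comparison, and 8 of the 18 calls. Most of these calls were of the pair RPL31A and RPL31B, repeated over comparisons that share libraries. The share of all features that passed in at least 1 comparison is not given here, so these counts do not set this group apart. The median of the group with Npl3 at 25 °C was 0.44, beside 0.34 for all 81 genes. RPL31A and RPL31B encode a rim protein without a bacterial counterpart, beside which chaperones of new chains dock. RPL31B (YLR406C, build R64, chromosome XII, 931065 to 931755) stood at 251 and 317 CPM in the unheated control, 978 and 1045 with Npl3, and 224 and 315 with Mex67. At 42 °C it stood at 200.2 and 189.8 in the control, 652 and 570.0 with Npl3, and 76.3 and 159 with Mex67. All 4 Npl3 libraries therefore lay above all others, and both heated Mex67 libraries lay below both heated controls. Its log2 difference between Npl3 and the control was 1.83 ± 0.44 at 25 °C (SE, 2 libraries against 2; edgeR adjusted p = 0.0494) and 1.65 ± 0.46 at 42 °C (0.0477), where it was the gene that passed. The second was 1.69 without the heated no-tag replicate 1 (edgeR adjusted p = 0.159). The difference between Mex67 and Npl3 was −1.91 ± 0.44 (edgeR adjusted p = 0.0414) at 25 °C and −2.39 ± 0.45 (0.0373) at 42 °C.

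RPL31A (YDL075W, chromosome IV, 322226 to 322988) followed its copy, at 1215 and 1068 CPM in the unheated control, 4111 and 3694 with Npl3, and 438 and 781 with Mex67. After heat it had 1151 and 684 in the control, 2467 and 1617 with Npl3, and 220.3 and 503 with Mex67. The 3 strains did not overlap at either temperature. Mex67 lay below Npl3 by −2.68 ± 0.61 (edgeR adjusted p = 0.0389) and −2.50 ± 0.61 (0.0440), while the difference of 1.77 ± 0.59 between Npl3 and the control at 25 °C did not pass with edgeR and passed with DESeq2 (adjusted p = 0.0133).

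RPL26A, which encodes another protein at the tunnel mouth, had 707 and 325 CPM in the unheated control, 1551 and 1532 with Npl3 and 276 and 389 with Mex67. Npl3 lay above both other groups, and the Mex67 and control values overlapped. Mex67 was lower than Npl3 by −2.21 ± 0.54 (edgeR adjusted p = 0.0457). RPL35B, a rim protein gene with few counts, had 110.2 and 61.1 CPM with Npl3 at 42 °C and 6.36 and 23.7 with Mex67 (8 and 11 counts), a difference of −2.71 ± 0.68 (edgeR adjusted p = 0.0471) that was −1.73 without the heated Mex67 replicate 1. Its heated controls, at 83.4 and 18.3 CPM (5 and 8 counts), spanned most of that range.

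The remaining tunnel genes did not pass. RPL25, whose product is the main docking site for factors at the tunnel mouth, had 877 and 979 CPM in the unheated control, 997 and 708 with Npl3 and 356 and 753 with Mex67. RPL39, whose small product lines the tunnel, had 678 and 334, 517 and 525, and 183 and 338 CPM in the same order. In RPL25 and RPL39 alike the Npl3 and control values overlapped. RPL4A, whose product lines the narrow part of the tunnel, had 959.9 and 1287 CPM in the unheated control and 914 and 639 with Npl3. After heat it had 1335 and 885 in the control, 208 and 377 with Npl3, and 134 and 475 with Mex67. Both heated precipitates lay below both heated controls, with log2 differences of −1.91 ± 0.62 for Npl3 and −1.86 ± 0.62 for Mex67. These were −1.59 and −1.55 without the heated no-tag replicate 1, and the one for Mex67 was −1.24 without the heated Mex67 replicate 1 and −3.12 without replicate 2. RPL4A and RPL4B were called lower by DESeq2 for Npl3 at 42 °C, where edgeR did not call them; without that control library DESeq2 did not either. The 16 tunnel genes had medians of 0.44 with Npl3 and −0.60 with Mex67 at 25 °C, and of −0.23 and −1.32 at 42 °C (−0.12 and −0.99 without that control library).

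RPL34A (YER056C-A, chromosome V, 269423 to 270185) encodes a protein without a bacterial counterpart and showed the largest fitted difference with Npl3 among the 81 at 25 °C. It had 448 and 453 CPM in the unheated control, 2560.4 and 2272 with Npl3, and 325 and 590.0 with Mex67. The Npl3 libraries stood far above, and those of Mex67 lay on either side of the control. The log2 difference between Npl3 and the control was 2.42 ± 0.53 (edgeR adjusted p = 0.0379). After heat the values were 551 and 325, 1153 and 824, and 168 and 295 CPM, in the same order of strains and without overlap. Mex67 was lower than Npl3 by −2.40 ± 0.53 (edgeR adjusted p = 0.0379) at 25 °C and −2.10 ± 0.53 (0.0470) at 42 °C. The other copy, RPL34B, had 629 and 624 CPM in the unheated control and 1158 and 1519.9 with Npl3, with a log2 difference of 1.10 ± 0.64 that did not pass.

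RPL24B (YGR148C, chromosome VII, 787312 to 787779) encodes a protein that joins the subunit late, in the cytoplasm, and reaches across to the small subunit. It had 992 and 743 CPM in the unheated control, 4405 and 3322 with Npl3 and 374 and 949 with Mex67. The Npl3 libraries lay above all others, and the Mex67 values enclosed the lower control. Mex67 was lower than Npl3 by −2.55 ± 0.62 (edgeR adjusted p = 0.0457), and the difference of 2.15 ± 0.61 between Npl3 and the control passed with DESeq2 and not with edgeR. RPL36B (YPL249C-A, chromosome XVI, 75699 to 76239), for a protein without a bacterial counterpart, had 866 and 704, 2632 and 3240.2, and 286 and 716 CPM in the same order. After heat it had 818 and 556, 1602 and 1073, and 178 and 364 CPM. Npl3 lay above both other groups at both temperatures. Mex67 was lower than Npl3 by −2.55 ± 0.60 (edgeR adjusted p = 0.0442) at 25 °C and −2.31 ± 0.60 (0.0493) at 42 °C. RPL43B had 336 and 260.3 CPM with Npl3 and 39 and 103 with Mex67 at 42 °C, a difference of −2.11 ± 0.51 (edgeR adjusted p = 0.0444). Its heated controls had 100.1 and 128 CPM, on either side of the higher Mex67 value.

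Among the genes of the smallest proteins, RPL29 and RPL41A passed between Mex67 and Npl3. RPL29 (YFR032C-A, chromosome VI, 223258 to 223437), a small basic protein gene, had 494 and 263 CPM in the unheated control, 933 and 1058 with Npl3, and 85.1 and 187 with Mex67. The 3 strains were fully apart. After heat it had 317 and 153, 750.2 and 415, and 52.5 and 164 CPM, where Npl3 lay above the others and Mex67 overlapped with the control. Mex67 lay below Npl3 by −2.87 ± 0.65 (edgeR adjusted p = 0.0387) at 25 °C and by −2.46 ± 0.64 (0.0493) at 42 °C. RPL41A encodes the shortest ribosomal protein, which bridges the subunits, and its reading frame spans 78 bases (YDL184C, chromosome IV, 130407 to 130484). It had 161 and 50.3 CPM in the unheated control, 99.7 and 271 with Npl3 and 18 and 32.6 with Mex67, the last from 7 and 14 counts. Both Mex67 libraries were below the other unheated libraries, and the Npl3 and control values overlapped. Mex67 was lower than Npl3 by −2.86 ± 0.63 (edgeR adjusted p = 0.0379). Against the control at 25 °C, RPL41A, RPL41B and RPL29 had log2 differences of −2.07 ± 0.63, −1.89 ± 0.55 and −1.48 ± 0.62 with Mex67, and none passed. Without the unheated no-tag replicate 1 they were −0.97, −0.88 and −0.95. RPL38, for another small protein, had 731 and 636 CPM in the unheated control, 695 and 1613 with Npl3 and 199 and 489.7 with Mex67, so Mex67 lay apart from the control and Npl3 did not.

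**Figure D3:**
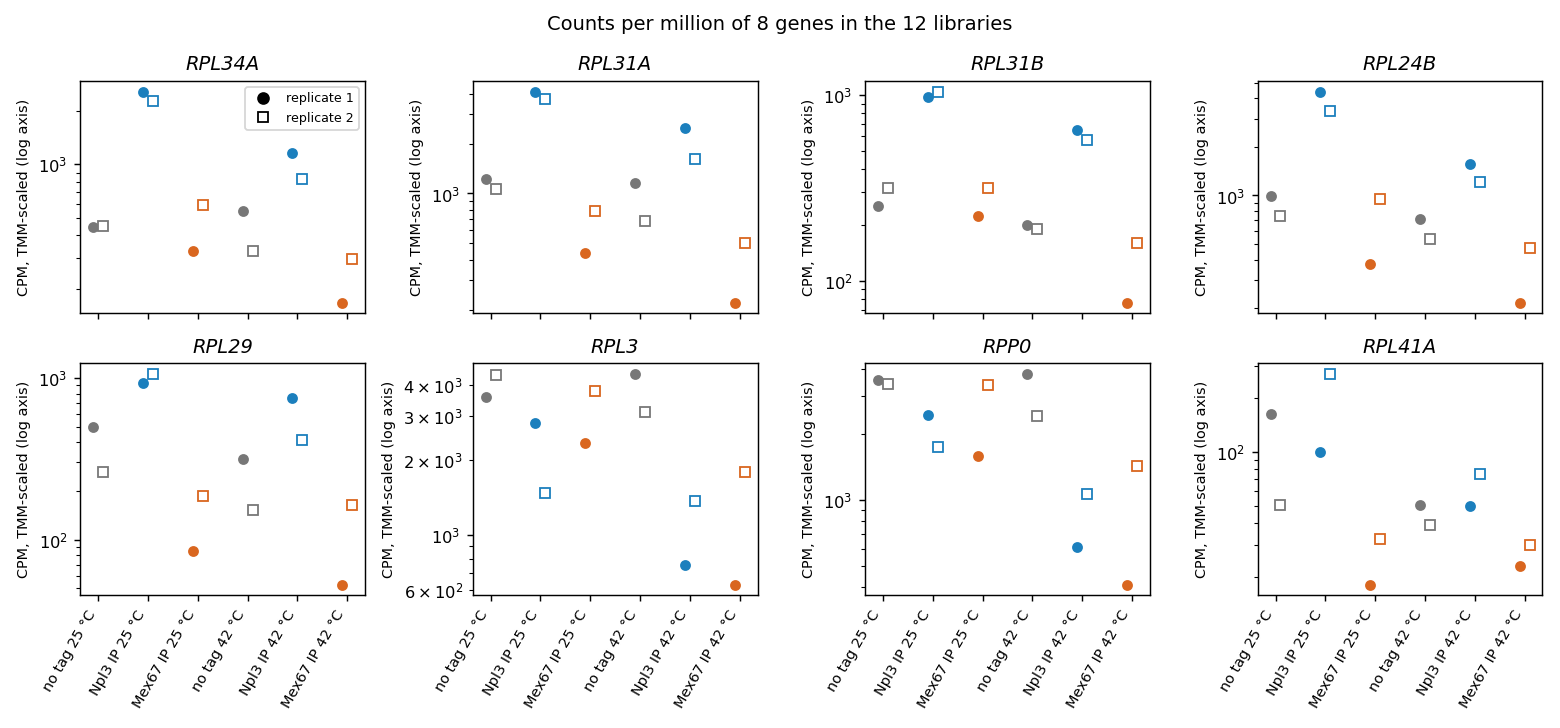
CPM (TMM-scaled counts, log axis) of 8 genes in the 12 libraries by group; filled circles are replicate 1 and open squares replicate 2. Npl3 lies above both other strains for RPL34A, RPL31A, RPL31B, RPL24B and RPL29 at 25 °C, while RPL3 and RPP0 lie below the control with Npl3 at both temperatures.

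The acidic stalk recruits and activates the translation factors that hydrolyse GTP, and its genes lay on both sides of 0 with Npl3. RPP0, which anchors the stalk, had 3570.4 and 3406 CPM in the unheated control, 2452 and 1751 with Npl3, and 1598 and 3379 with Mex67. After heat it had 3788 and 2432 in the control, 609 and 1064 with Npl3 and 409 and 1431 with Mex67. Npl3 lay below both controls at each temperature, by −0.73 ± 0.67 and −1.89 ± 0.69, and neither passed with edgeR, though DESeq2 called the second lower. Without the heated no-tag replicate 1 the second was −1.54, and DESeq2 did not call it. RPP2B, for one of the flexible stalk proteins, had 1373 and 1302 CPM in the unheated control and 695 and 619 with Npl3, a log2 difference of −1.03 ± 0.73 that did not pass. RPP1A had 1009 and 1109.7 CPM against 625 and 695, and RPP1B 522 and 654 against 354 and 367, both also apart and lower. RPP2A lay the other way, at 728 and 758 CPM in the control and 896 and 983 with Npl3. RPL12A and RPL12B, which encode the base of the stalk, had 708 and 704 CPM and 1045 and 1104 CPM in the unheated control, and 1592 and 867 and 2577 and 2378 with Npl3. Both were apart and higher, though neither passed. The 7 stalk genes thus split, and their median was −0.68 with Npl3 at 25 °C and −1.45 at 42 °C (−1.54 without the heated no-tag replicate 1).

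RPL5 and RPL11 bind 5S rRNA and enter the subunit with it as one particle. RPL5 had 2846 and 3589 CPM in the unheated control, 3686 and 3838 with Npl3 and 2279 and 3330.0 with Mex67. After heat it had 3187 and 2350.2, 900.0 and 1564, and 703 and 1558 CPM. Heated Npl3 and Mex67 libraries lay below all unheated ones and below both heated controls. RPL11A had 471 and 369.9 CPM in the unheated control, 1173 and 707 with Npl3 and 142 and 287 with Mex67, all apart, and 316 and 259 with Npl3 after heat. RPL11B had 309.9 and 260.4 CPM in the unheated control, 616 and 498 with Npl3 and 134 and 287 with Mex67. With edgeR none of the 3 passed in a comparison.

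Of the 5 genes for proteins around the peptidyl transferase centre, 0 lay above both controls in both Npl3 libraries at either temperature, against 28.2% of all features at 25 °C and 34.9% at 42 °C, so that with 5 genes a count of 0 is near that background. RPL3 had 3576 and 4406 CPM in the unheated control, 2804 and 1478 with Npl3 and 2338 and 3775 with Mex67. At 42 °C it had 4439 and 3118 in the control, 756 and 1367 with Npl3 and 627 and 1792 with Mex67. Npl3 lay below both controls at both temperatures, by −0.90 ± 0.65 and −1.83 ± 0.66, which edgeR did not call and DESeq2 called at 42 °C. The first was −1.43 and −0.51 without the unheated Npl3 replicates 1 and 2, and the second −1.55, and not called by DESeq2, without the heated no-tag replicate 1. RPL10, which is among the last proteins to join the subunit, had 3499.6 and 3119 CPM in the unheated control, 2574 and 2093 with Npl3 and 1637 and 2703 with Mex67. RPL28, the gene altered in cycloheximide-resistant strains, had 2226 and 1734, 2095 and 1874, and 657 and 1681 CPM, with overlap between control and Npl3. RPL1A and RPL1B, for the mobile L1 stalk beside the exit site of tRNA, had 430.4 and 391 and 443 and 355 CPM in the unheated control and 279.7 and 212 and 208 and 119.8 with Npl3. Both copies were apart and lower in these libraries, and neither passed (RPL1B −1.29 ± 0.57). RPL40A and RPL40B, made as fusions to ubiquitin, had 850.2 and 904 CPM and 973 and 744 CPM with Npl3, against 1171 and 775 and 708 and 589 in the unheated control. RPL30, whose product binds its own transcript and blocks its splicing, had 1227 and 775 CPM in the control, 1813 and 2821 with Npl3 and 394 and 774 with Mex67, and did not pass with edgeR.

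Length moved with these differences. Among the 27 genes without an intron, whose annotated span is the coding length, the rank correlation of span with the log2 difference was −0.44 for Npl3 against the control at 25 °C and −0.63 at 42 °C (−0.47 without the heated no-tag replicate 1). For Mex67 against the control it was 0.70 at 25 °C and −0.24 at 42 °C (−0.08 without that library), and for Mex67 against Npl3 it was 0.71 and 0.67. Among these 27 genes, shorter ones thus lay higher with Npl3 at both temperatures and lower with Mex67 at 25 °C. Over all 81 genes, with introns counted in the span, the Mex67 value at 25 °C was 0.40. Correlations without single unheated libraries are not given here. Over 5134 coding features the correlations were −0.50 and −0.42 for Npl3, 0.14 and −0.14 for Mex67, and 0.54 and 0.45 between them. These describe genes that share the same libraries. With offsets corrected for length in every library 0 of the 81 genes passed in any comparison, and the differences of those that had passed shrank: RPL34A from 2.42 to 2.00 (edgeR adjusted p = 0.0987) and RPL31B from 1.83 to 1.29 (0.172) for Npl3 at 25 °C. RPL29 went from −2.87 to −1.69 (0.188) and RPL41A from −2.86 to −1.48 (0.160) for Mex67 against Npl3. The median of the 81 for Npl3 at 25 °C went from 0.34 to −0.053. The share of all features called with these offsets is not given here, so the 0 does not set the 81 genes apart from other features. The part of length in these results was not tested further.

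Introns separated the genes less. The 54 genes with an intron had a median of 0.39 with Npl3 at 25 °C and −0.45 at 42 °C, and the 27 without had 0.23 and −0.83. With Mex67 the medians were −0.62 and −0.61 at 25 °C and −1.29 and −1.38 at 42 °C. Without the heated no-tag replicate 1 the medians at 42 °C were −0.34 and −0.79 with Npl3 and −1.08 and −1.27 with Mex67. Among genes that passed, RPL34A and RPL31B have an intron, and so do 5 of the 8 lower with Mex67 than with Npl3 at 25 °C and 6 of the 7 at 42 °C. The counts do not separate spliced from unspliced reads, so splicing itself was not measured.

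The copies of a pair encode nearly the same protein, and how reads that match both were counted is not given in the sources used here, so the split between copies is uncertain where their sequences are close. The share of the A copy in the counts of its pair was compared over the 4 Npl3 and the 4 no-tag libraries. These did not overlap in 14 of 35 pairs, against 50.8% of all 59 ribosomal protein pairs of both subunits. The share was higher with Npl3 in 5 pairs (RPL8, RPL16, RPL26, RPL34 and RPP2) and lower in 9 (RPL7, RPL12, RPL15, RPL17, RPL18, RPL24, RPL27, RPL33 and RPL36). For Mex67 it did not overlap with the control in 5 of 35 pairs, against 13.6% of all 59, and was lower in each (RPL11, RPL20, RPL22, RPL31 and RPL33). The shares did not overlap in 16 pairs with Npl3 and 9 with Mex67 when the heated no-tag replicate 1 was left out, against 55.9% and 22.0% of all 59.

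RPL34A took 41.6% and 42.0% of its pair in the unheated control and 47.8% and 43.4% in the heated one, against 68.9% and 59.9% and 72.2% and 59.6% with Npl3. RPL24A took 66.2% and 58.9% and then 50.6% and 58.0% in the control, against 30.1% and 44.2% and then 33.2% and 44.7% with Npl3. The preferred copy thus changed between strains in both pairs, A over B for RPL34 and B over A for RPL24. RPP2A went from 34.7%, 36.8%, 41.0% and 41.7% in the 4 controls to 56.3%, 61.4%, 60.4% and 53.9% with Npl3, and RPL36A from 18.3% to 23.5% down to 9.8% to 14.0%. In the Mex67 libraries RPL34A took 58.1% and 46.9% at 25 °C and 65.7% and 43.6% at 42 °C, with replicate 1 near Npl3 and replicate 2 near the control.

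**Figure D4:**
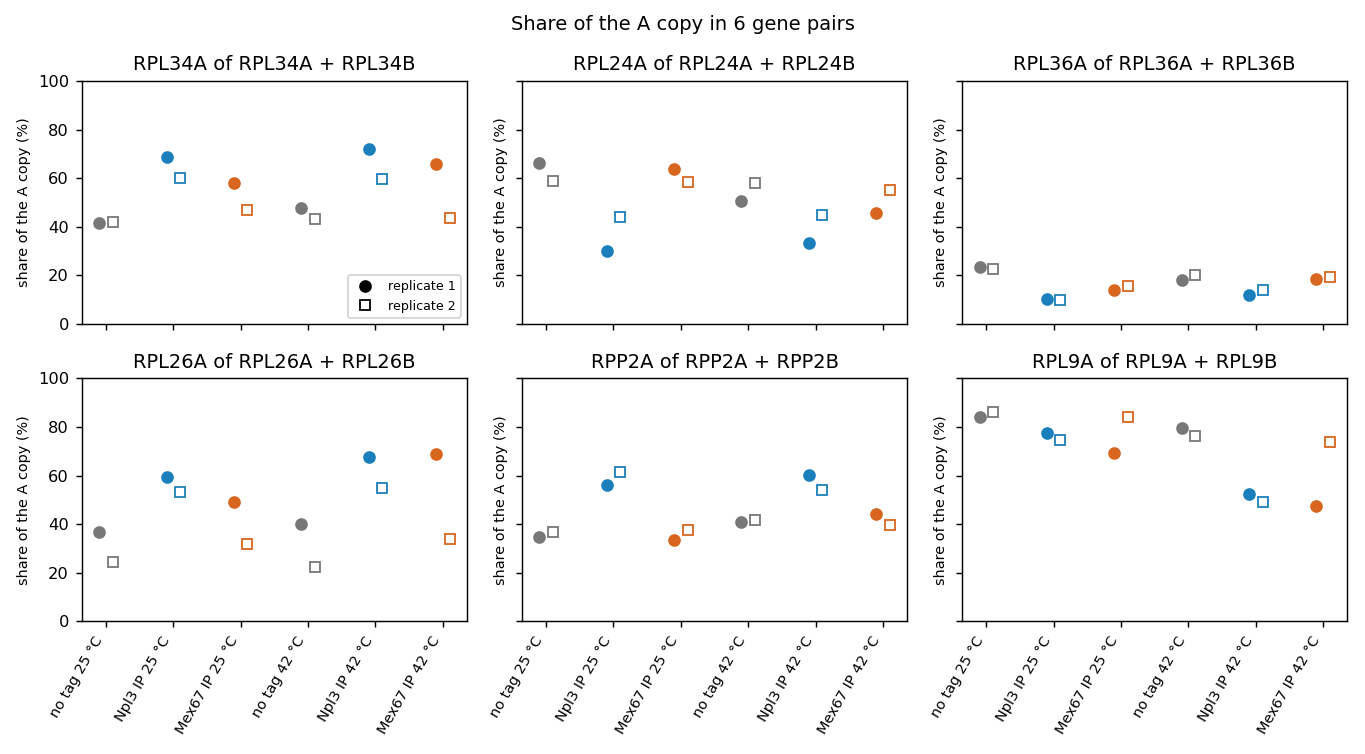
Share of the A copy in the counts of 6 gene pairs, in percent, by group; filled circles are replicate 1 and open squares replicate 2. The Npl3 libraries lie apart from the no-tag libraries in RPL34, RPL24, RPL36, RPL26 and RPP2. The share of RPL9A drops with heat in both cultures of every strain.

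Heat was examined within each strain. In the control 75 of the 81 genes lay below 0 after heat with a median of −0.40, against −0.07 for all features. With Npl3 80 lay below 0 with a median of −1.24, against 0.10, and with Mex67 78 with a median of −1.06, against 0.05. With edgeR quasi-likelihood 0 genes passed in any of the 3, as did 0 of all features (0.0%), and DESeq2 called 0 of the 81, against 0.0%, 0.0381% and 0.0956% of its features called lower. At an unadjusted p under 0.05, 0, 31 and 13 genes were lower, against 1.12%, 4.4% and 4.98% of all features. In 73 genes both heated Npl3 libraries lay below both unheated ones, against 18.6% of all features, and in the control and with Mex67 this held for 42 and 26, against 18.5% and 20.3%. Without the heated no-tag replicate 1, 74 genes in the control lay below both unheated libraries, against 32.3% of all features, and 0 had an unadjusted p under 0.05, against 0.896% lower.

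The change was also taken within each divided culture. The 2 control cultures had medians of −0.32 and −0.48, with 60 and 74 genes below 0, and HSP26 had changes of 2.35 and 3.54 on the same log2 scale, against 4.02 to 7.18 in the precipitated cultures. The Npl3 cultures had −1.37 and −0.97, with 77 and 79 below 0, and the Mex67 cultures −1.59 and −0.85, with 76 in each. Both control cultures thus lay nearer 0 than all 4 precipitated ones. In 3 of the 81 genes both cultures of one strain changed in the opposite direction to both of another, against 20.0% of all features. The Mex67 median fitted over both cultures was −0.35 without the heated replicate 1, −0.40 without the unheated replicate 2, −1.49 without the unheated replicate 1 and −2.30 without the heated replicate 2, and the control median was −0.57 without its heated replicate 1 and −0.25 without its heated replicate 2.

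**Figure D5:**
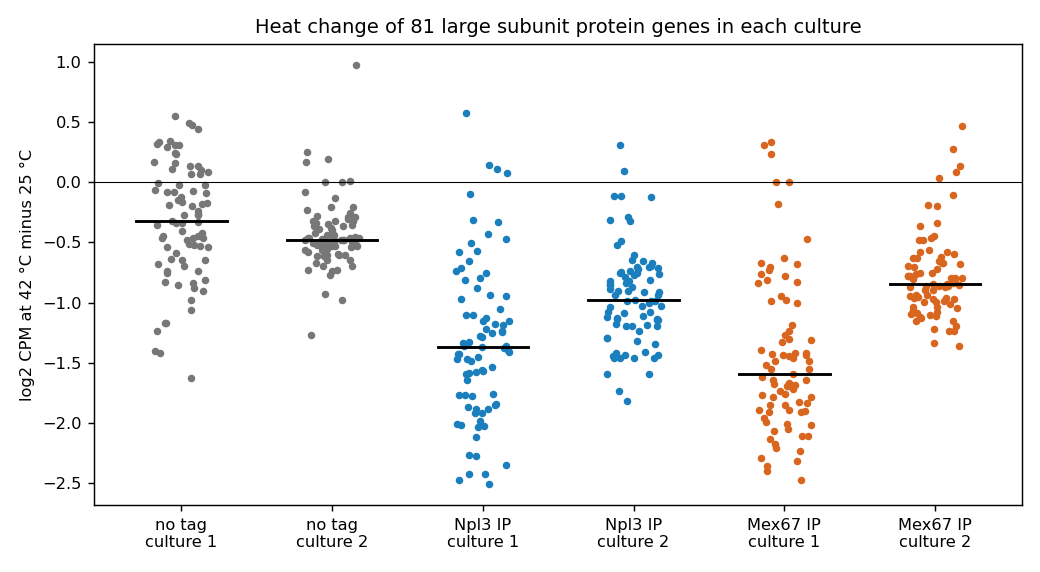
Change of log2 CPM from 25 °C to 42 °C of the 81 genes in each of the 6 divided cultures, 1 point per gene, with the median as a bar. The medians are −0.32 and −0.48 in the no-tag cultures, −1.37 and −0.97 in the Npl3 cultures and −1.59 and −0.85 in the Mex67 cultures.

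With the culture as a block RPL9A passed in the Npl3 heat comparison, against 0.0953% of all features called lower. RPL9A (YGL147C, chromosome VII, 227754 to 228329), which encodes a protein near the stalk base, had 1111 and 1037 CPM at 25 °C and 204 and 309.7 at 42 °C with Npl3. The heated libraries were far below the unheated ones in both cultures, and RPL9A fell by 2.09 ± 0.44 on the log2 scale (edgeR with culture block, adjusted p = 0.0431); without the block the difference was −2.06 ± 0.77 and did not pass. The control went from 1445 and 1027 CPM to 1035 and 619.6. The share of RPL9A in its pair went from 77.5% and 74.8% to 52.5% and 49.1% with Npl3, from 69.3% and 84.3% to 47.5% and 73.8% with Mex67, and from 84.2% and 86.3% to 79.5% and 76.1% in the control. RPL9B, the other copy, had 323 and 349 CPM with Npl3 at 25 °C and 184 and 321 at 42 °C.

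Other genes low after heat with Npl3 were RPL13B, at 2250.2 and 1321 CPM before and 392 and 574 after (−1.88 ± 0.62), and RPL11A (−1.71 ± 0.58). With Mex67 RPL4A was the lowest, at 719 and 1112 CPM before and 134 and 475 after (−1.60 ± 0.61), a difference that was −0.92 without the heated replicate 1 and −2.81 without the heated replicate 2. RPL15B, the scarcer copy of RPL15 with 461 counts in all, lay above 0 in all 6 cultures, at 59.5 and 56.7 CPM before heat and 90.4 and 71.1 after it with Npl3.

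The difference between heat changes was tested as an interaction. The heat change of the 81 genes was lower with Npl3 than in the control by a median of −0.79, with 74 below 0, and lower with Mex67 by −0.67, with 73 below 0, against 0.12 and 0.08 for all features. Mex67 minus Npl3 had 0.18 with 57 above 0. EdgeR and DESeq2 called 0 of the 81 genes in any of these 3, as edgeR called 0 of all features (0.0%), and at an unadjusted p under 0.05 there were 1, 1 and 0, all lower, against 0.705%, 1.37% and 0.534% of all features. Those genes were RPL8A for Npl3 and RPL4B for Mex67, named here after their values were seen. Without the heated no-tag replicate 1 there were 0 with Npl3 and 0 with Mex67 at that p, against 0.4% and 0.61% of all features. The medians were then −0.69 and −0.51, and the one for Mex67 was −0.01 without the heated Mex67 replicate 1, 0.01 without the unheated replicate 2 and −1.90 without the heated replicate 2.

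Genes around the large subunit were listed beside these. In the comparisons used here 2.27% and 6.54% of all features were higher with Npl3 at 25 °C and 42 °C, and 2.52% and 3.24% were lower with Mex67 than with Npl3. Of 56 small subunit protein genes 3 and 2 were higher with Npl3 and 6 and 5 lower with Mex67 than with Npl3, in the same order of temperatures. Their medians were 0.34 and −0.55 with Npl3 and Mex67 at 25 °C and −1.20 and −1.06 for the heat change in those strains. Of 37 genes for assembly and export of the large subunit 5 and 2 were higher with Npl3, and 2 and 1 were lower with Mex67 than with Npl3. Without the heated no-tag replicate 1, 0 genes of either list were higher with Npl3 at 42 °C. Their median with Mex67 at 25 °C was 0.52, where that of the 81 genes was −0.61, and after heat it changed by −0.86 with Mex67. Of 9 tested regulators of ribosomal protein transcription and 5 dedicated chaperones of large subunit proteins 0 passed in any comparison. The regulators had heat medians of 0.10, 0.06 and 0.15 in the control, with Npl3 and with Mex67.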

How the data were processed

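The deposited values were raw read counts, in 1 table per library with a row for each annotated feature. Per the submitters' processing notes build R64 was used with STAR, DESeq2, CASAVA 1.8.2 and, for counting, featureCounts in Subread 1.5.0-p1; whether counting used strand and how it handled reads that map more than once are not given in the sources used here. Libraries were grouped by their labels. Gene symbols, coordinates and spans came from the RefSeq table of the same build, which matched 6048 features by locus tag and 121 by symbol or synonym and left 957 unnamed.

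Tests used edgeR 4.0.16 in R 4.3.3 (TMM, filterByExpr at min.count 10 and min.total.count 15, robust glmQLFit with 1 mean for each of 6 groups, glmQLFTest) with 6 residual degrees of freedom, and Benjamini-Hochberg adjustment at 0.05 over 5245 features within each of 12 comparisons. A standard error is the log2 difference divided by the root of its F statistic, and so rests on the spread over all libraries. CPM were TMM-scaled; log2 changes per culture used a prior count of 2. Shares have exact Clopper-Pearson intervals. With 2 libraries a group, an exact permutation test of 1 value could not go below p = 0.333 and none was run. Introns were assigned from a list, to which RPP1B was added after its span was seen.

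Data were simulated for 5245 genes, with changes planted only in features with a mean of at least 50 counts. For Npl3 at 25 °C 58.7% of planted 4-fold and 0.333% of planted 2-fold differences were recovered. For the Npl3 heat change 58.8% and 0.333% were recovered. The labels say that each culture was divided between the temperatures, so the culture was also fitted as a block for heat. Between the temperatures, deviations of replicates correlated at 0.266, 0.114 and 0.601 (no tag, Npl3, Mex67) over 2247 features. Between strains the same correlations ran from −0.174 (heated control with heated Mex67) to 0.455 (heated Npl3 with heated Mex67). For no tag and Npl3 the values thus do not single out the shared culture. Other alternatives were DESeq2 1.42.0, RLE and total-count scaling, other filters, only the groups compared, a block for replicate number, length-corrected offsets (lowess on log10 length, span 0.4) and leaving out each library; DESeq2 without the heated no-tag replicate 1 was added after seeing the data. Named genes were those called, the highest and lowest per comparison and a fixed list by role. The members and lists were chosen with earlier results of these data known, and no list was tested. Figures used matplotlib 3.10.9.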

Additional observations from a re-analysis of the deposited data

Results flagged for a closer look

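In 3 genes every culture of one strain moved one way with heat and every culture of another strain the opposite way, which 20.0% of all features also did, a larger share than that of the 81 genes. The difference itself did not pass as an interaction for any of them (edgeR quasi-likelihood). RPL14B, a pair member on the outer face of the subunit, changed by 0.318 and 0.197 (log2 CPM) in the no-tag cultures, by −0.756 and −0.486 in the Npl3 cultures and by −0.631 and −0.362 in the Mex67 cultures. The mean no-tag change was higher by 0.879 than that of Npl3 and by 0.754 than that of Mex67. One of its no-tag values rests on the heated library without the usual heat shock message.

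RPL22B, whose intron is bound by its own product, changed by 0.00 and 0.13 in the Mex67 cultures, by −0.756 and −1.26 without a tag and by −1.54 and −0.325 with Npl3. The no-tag mean was lower than that of Mex67 by −1.08 and the Npl3 mean by −0.9998. RPL35A, of the tunnel rim, changed by 0.00 and 0.03 with Mex67, by −0.812 and −0.226 without a tag and by −0.652 and −0.984 with Npl3, mean differences of −0.537 and −0.836. Both genes had few counts, with 2 to 127 per library for RPL22B and 5 to 126 for RPL35A, and the Mex67 changes were close to 0.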

How the results depend on the processing

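Counts are of the 81 genes passing edgeR's adjusted p unless another tool is named, and causes of the moves were not tested. Shares of all features called are given above for the main fit, DESeq2 and the culture block, and not for most other settings. Under those settings the counts show how calls moved, and do not set the 81 genes apart from other features. The sign of every log2 difference printed with its error held under RLE and total-count scaling, with replicate number as a block and without any 1 library, and the 4 printed for heat also held with culture as a block. For Npl3 at 25 °C 2 genes passed, 6 with total counts only, 6 with DESeq2, 5 with only the groups compared and 0 with length-corrected offsets; the median of 0.34 was 0.58 with total counts only and −0.053 with length-corrected offsets. At 42 °C the 1 gene became 7, 5, 7 and 0 under these 4 settings, and the median of −0.49 was −0.012 with total counts only and −0.92 with length-corrected offsets. Total counts only moved the median of all features for Npl3 to 0.25 and 0.51 and for Mex67 to 0.26 and 0.69, so the 81 genes stayed below all features by −0.53 for Npl3 at 42 °C. For Mex67 at 42 °C DESeq2 called 7 where edgeR called 0, and without the heated no-tag replicate 1 DESeq2 called 0 there and 0 for Npl3 at 42 °C. Between Mex67 and Npl3 at 25 °C the 8 genes became 19 with DESeq2, 15 without a low-count filter and 0 with length-corrected offsets. At 42 °C the 7 became 16 with DESeq2, 4 with RLE size factors, and 0 with total counts only, only the groups compared or length-corrected offsets. The culture block gave 1 gene in the Npl3 heat change and changed no other call. No source says that replicate numbers pair libraries of different strains, though the STE2 message separated replicate 1 from replicate 2 in every group. With replicate number as a block 16 and 13 genes passed between Mex67 and Npl3, at 25 °C and 42 °C. Counts in the other comparisons did not move. Of nuclear protein-coding counts the shares were 8.45% (no tag) and 10.96% (Npl3) at 25 °C and 6.93% and 5.28% at 42 °C. Leaving out each library gave 0 to 4 and 0 to 10 genes for Npl3 at 25 °C and 42 °C, 0 to 20 and 0 to 7 between Mex67 and Npl3, and 0 in the other 8 comparisons. The median for the heat change of Mex67 minus that of Npl3 ranged from −1.03 to 0.89 in these fits. Planted 2-fold differences were recovered at 0.333% for Npl3 at 25 °C and for its heat change, so they were mostly missed in the simulated data. How far this holds for the real libraries was not tested. The differences were planted only in features with a mean of at least 50 counts, so the recovery does not cover genes with fewer. Of the 81 genes 9 had under 10 counts in a library.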
